A study of Mus musculus and Homo sapiens with 4 samples.

Results

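The broad Miz1 peaks of the human line labelled MDA-MD-231 are the stretches of chromatin where this transcription factor was called bound over more than 500 bp. They were chosen by the width of each peak, its end minus its start, in the deposited peak list of 1 library. Of 2911 peaks, 698 were wider than 500 bp. A further condition left out the 16 peaks, 7 of them broad, that overlap 3 dense stretches on chromosomes 1 and 17 (hg19, bases 16268364 to 16302627 of chromosome 1, and bases 18964631 to 18967980 and 19090733 to 19094124 of chromosome 17). The members are therefore 691 broad peaks, or 23.9% of the 2895 peaks compared, and the other 2204 peaks of the list, here called the remaining peaks, stand beside them.

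Miz1 is a transcription factor with a POZ domain, through which such proteins pair with one another, and a row of zinc fingers that contact DNA. It is known both as an activator of genes at whose promoters it sits and, when joined by the oncoprotein MYC, as a repressor of some of them. In ChIP-seq, DNA crosslinked to the factor is pulled down with an antibody and sequenced, and a single bound site typically gives a peak somewhat wider than the DNA fragments. A wider peak can hold several sites, DNA reached through partner proteins, or a site with a very strong signal, and a peak list alone does not tell these apart.

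The study deals with Miz1 and autophagy, the degradation of cell contents in lysosomes. The human cells were untreated as far as the labels say, grown in DMEM with 10% fetal calf serum, and profiled with the Miz1 antibody G18 in 1 library beside 1 input library of the same line, whose values were not analysed here. Chromatin was crosslinked in 1% formaldehyde, sheared to an average of less than 500 bp, and a band near 200 bp was taken for sequencing, per the labels' protocols. With 1 Miz1 library, 1 line and 1 antibody, no value has a replicate error. All intervals are 95% intervals that take peaks as units and cover counting error only, and no p-value is given. Read depth, expression, the genes at these peaks and the DNA sequence under them were not analysed here, so members are named by their position in hg19, counted from base 1, with the authors' score. That score is 1 number per peak in the deposited list; its scale is stated in no source used here, and it stops at a ceiling of 3100, which only 2 peaks pass.

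The 691 broad peaks spanned a wide range of sizes, and most lay close to the threshold. Their width ran from 501 to 2961 bp, with a median of 700 bp and quartiles of 579.5 and 967.5 bp, against a median of 300.5 bp among the remaining peaks (87 to 499 bp). Between 501 and 600 bp there were 215 members, between 601 and 750 bp there were 179, and between 751 and 1000 bp there were 143. Only 154 members were wider than 1000 bp: 120 of them measured up to 1500 bp, 25 up to 2000 bp, and 9 were wider still. Although they were 23.9% of the peaks compared, broad peaks made up 569 kb of the 1242 kb covered, or 45.8%. These widths chose the members and are given as a description.

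The cut at 500 bp ran through a continuous range of widths. The narrowest members were 2 of 501 bp. One, with a score of 489.0, was on chromosome 17 (bases 18585384 to 18585884). The other, with a score of 710.2, was on chromosome 19 (bases 17015388 to 17015888). A member of 502 bp on chromosome 7 (bases 16955777 to 16956278) scored 793.0. Just outside lay 3 peaks of 499 bp, which scored 870.1 on chromosome 3 (bases 61548540 to 61549038), 189 on chromosome 4 (bases 49282881 to 49283379) and 164.9 on chromosome 17 (bases 26662311 to 26662809). The 23 members of 501 to 510 bp had a median score of 187.7, and the 24 peaks of 491 to 499 bp just under the threshold had one of 469.9. Members at the edge thus had the lower median of both sides, and none of these 47 peaks reached the score ceiling.

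**Figure D1:**
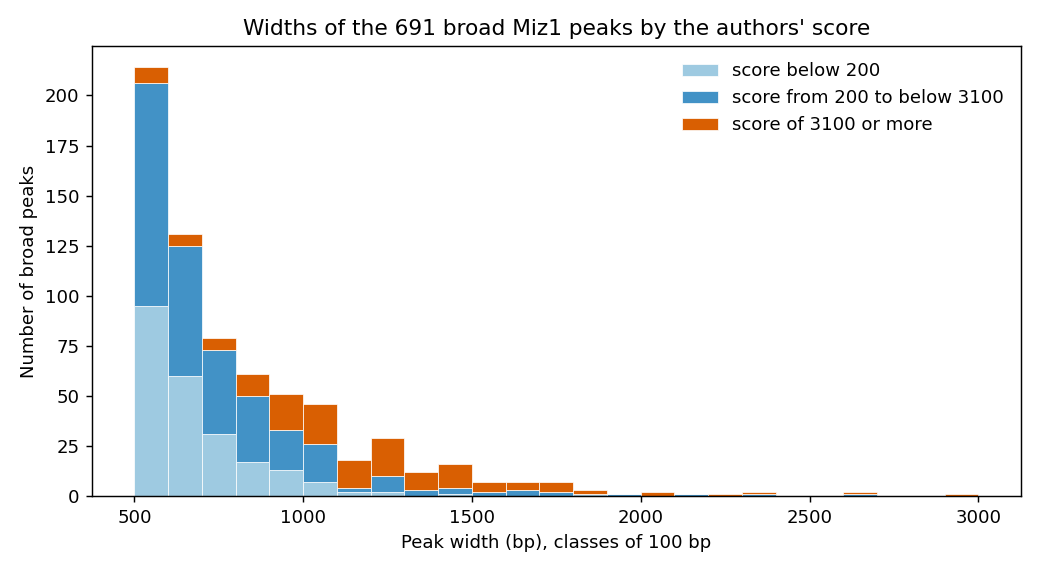
Number of broad peaks (vertical axis) by width in classes of 100 bp (horizontal axis), stacked by the authors' score. Most of the 691 members lie below 1000 bp, and peaks at the score ceiling of 3100 make up 95 of the 154 wider than 1000 bp.

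The widest member of all lay on chromosome 10 (bases 104179224 to 104182184), was 2961 bp wide and stood at the ceiling of 3100. A second broad peak of 536 bp began only 138 bp away (bases 104182323 to 104182858, score 196.2). Chromosome 4 held the next in width, 2692 bp (bases 182160273 to 182162964), which had a score of only 700.2 and no other peak within 1 Mb. The third, of 2661 bp, was on chromosome 11 (bases 65381151 to 65383811) at the ceiling. Chromosome 14 carried 2 of the 10 widest, both at the ceiling, of 2373 bp (from base 66973953 to 66976325) and of 2226 bp (from base 69618129 to 69620354). A peak of 2086 bp on chromosome 6 (bases 111803418 to 111805503) was also at the ceiling, as was one of 2022 bp on chromosome 12 (bases 89918212 to 89920233). The other 3 of the 10 widest scored below the ceiling. The 2382 bp peak of chromosome 7 (bases 157939570 to 157941951) had a score of 431.5. Chromosome 21 held a peak of 2158 bp (bases 9698471 to 9700628) with a score of 567.8, and chromosome 2 held one of 1901 bp (bases 1347613 to 1349513) with a score of 1391. Great width was therefore found with scores far below the ceiling as well as at it.

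Scores are described next, without a test, because width and score come from the same calling on the same reads. The median score of the broad peaks was 370.7 (quartiles 167.4 and 2165), and that of the remaining peaks was 165.8 (quartiles 123.7 and 290.9). Of the broad peaks, 145 stood at or above the ceiling, or 21.0% (Wilson interval 18.1 to 24.2%), against 11 of the 2204 remaining peaks, or 0.50% (0.28 to 0.89%). Those 11 were 316 to 489 bp wide. The share of peaks that were broad climbed through every score class, from 10.9% of the 562 peaks below 120 to 31.9% of the 163 peaks between 800 and 1600, 56.8% of the 88 peaks between 1600 and the ceiling, and 92.9% of the 156 peaks at or above it. Both peaks listed above 3100 were members: one of 960 bp on chromosome 19 (bases 1935371 to 1936330, score 3225) and one of 1366 bp on chromosome 7 (bases 116593281 to 116594646, score 3159).

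Within the broad peaks, strong and weak members differed in width. The 145 at or above the ceiling had a median width of 1150 bp (538 to 2961 bp), and 95 of them, or 65.5%, were wider than 1000 bp. The 317 between 200 and the ceiling had a median of 669 bp, with 14.5% wider than 1000 bp. The 229 members scoring below 200, here called weak, had a median of 624 bp (503 to 1845 bp), with 13 of them, or 5.68%, wider than 1000 bp. Weak members outnumbered those at the ceiling, at 33.1% of all broad peaks (29.7 to 36.7%), while 61.3% of the remaining peaks were as weak (59.2 to 63.3%).

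The weak members that were widest show that low scores reached well past 1000 bp. The widest, 1845 bp on chromosome 4 (bases 49299121 to 49300965, score 138.1), belonged to the run of broad peaks described further on. Next came 1469 bp on chromosome 16 (bases 3073047 to 3074515), whose score of 103.5 was close to the lowest in the list and whose nearest peak was 258 kb away. A peak of 1260 bp on chromosome 2 (bases 39347240 to 39348499, score 189.3) followed, and then one of 1222 bp on chromosome 12 (bases 125398511 to 125399732, score 197.7). Weak members of 1136, 1109 and 1097 bp came next. After them a peak of 1081 bp on chromosome 9 (bases 33817421 to 33818501) scored 114.8. The 5 given here by position were 1081 to 1845 bp wide, where members at the ceiling had a median of 1150 bp. They scored between 103.5 and 197.7, against a median of 184.6 in all peaks compared.

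**Figure D2:**
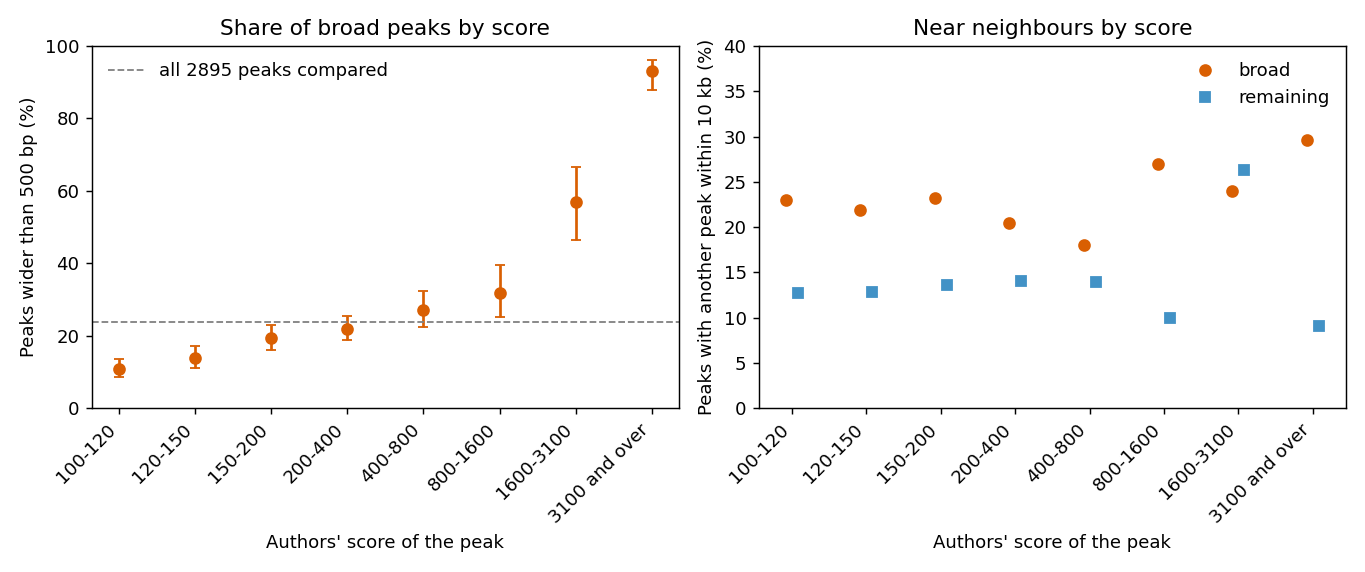
Left, share of peaks wider than 500 bp (vertical axis, percent) in 8 classes of the authors' score, with 95% Wilson intervals; the dashed line is the 23.9% of all peaks compared, and the share climbs from 10.9% to 92.9%. Right, share of broad (circles) and remaining (squares) peaks with another peak within 10 kb, in the same classes and drawn without intervals; broad peaks are higher in 7 of the 8.

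Broad peaks lay nearer to other peaks than the remaining peaks did. Spacing was measured as the gap from the edge of a peak to the edge of the nearest other peak of the whole list, which the width rule did not use. Across all peaks compared, 15.8% had another peak within 10 kb. Among broad peaks 163 did, or 23.6% (20.6 to 26.9%), and among remaining peaks 295 did, or 13.4% (12.0 to 14.9%). The difference was 10.2 percentage points (Newcombe interval 6.84 to 13.8). The median gap was 75.1 kb for broad peaks and 149 kb for remaining peaks. Both peaks of a close pair enter these counts, so the units are not independent and the intervals on spacing are too narrow.

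The excess held from very short to long distances. Gaps under 1 kb flanked 77 broad peaks, or 11.1%, and 126 remaining peaks, or 5.72%. Even gaps under 100 bp flanked 28 broad peaks, or 4.05% (2.82 to 5.79%), and 44 remaining ones, or 1.996% (1.49 to 2.67%). At 100 kb the shares were 54.7% and 41.4%, a difference of 13.3 points (9.02 to 17.5). Distances from centre to centre include part of the length of both peaks, and so set wide peaks farther from their neighbours. With these the difference at 10 kb was 9.62 points (6.29 to 13.2). How the peak caller divided a continuous stretch of signal was not tested. With peaks less than 1 kb apart merged the difference was 8.35 points (5.51 to 11.5). Widths were taken anew after merging, so close narrow peaks could become 1 broad peak, and the groups changed to 710 broad and 2078 remaining peaks. That setting therefore cannot decide the question.

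The share with a near neighbour changed gradually with width and had no step at 500 bp. It was 6.25% in the 272 peaks of up to 200 bp, 16.2% in the 724 peaks of 301 to 400 bp and 18.5% (14.9 to 22.7%) in the 378 peaks of 401 to 500 bp. Members of 501 to 750 bp had 19.5% (15.9 to 23.7%), an interval that overlaps that of the class just below. Members of 751 to 1000 bp had 27.3% (20.6 to 35.1%), and the 154 wider than 1000 bp had 30.5% (23.8 to 38.2%). Close to the threshold, 3 of the 23 members of 501 to 510 bp had a near neighbour, and so did 6 of the 24 peaks of 491 to 499 bp.

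The difference was also read within classes of score. In 7 of 8 score classes a larger share of broad than of remaining peaks had a near neighbour, and in 4 of them the interval of the difference lay above 0. Those 4 include every class below 200. These low classes hold 9 broad members of the run on chromosome 4 described further on, all with a near neighbour. Shares by score class without that run were not computed. Among peaks scoring below 120 the shares were 22.95% of 61 broad and 12.8% of 501 remaining peaks, a difference of 10.2 points (0.85 to 22.4). At 400 to 800 they were 18.1% and 13.9% (difference 4.17 points, −4.36 to 14.6). Only between 1600 and the ceiling was the order turned, at 24% of 50 and 26.3% of 38 (difference −2.32 points, −20.8 to 15.3). Of the 229 weak members 52 had a near neighbour, and that neighbour stood at the ceiling for 9 of them, or 17.3%. For the 176 weak remaining peaks with a near neighbour it did for 18, or 10.2%. Among all 2895 peaks compared, 156 stood at or above the ceiling. The 52 include the weak broad members of the run on chromosome 4. No interval was computed for the shares beside a ceiling peak, so their contrast is not read as a difference.

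**Figure D3:**
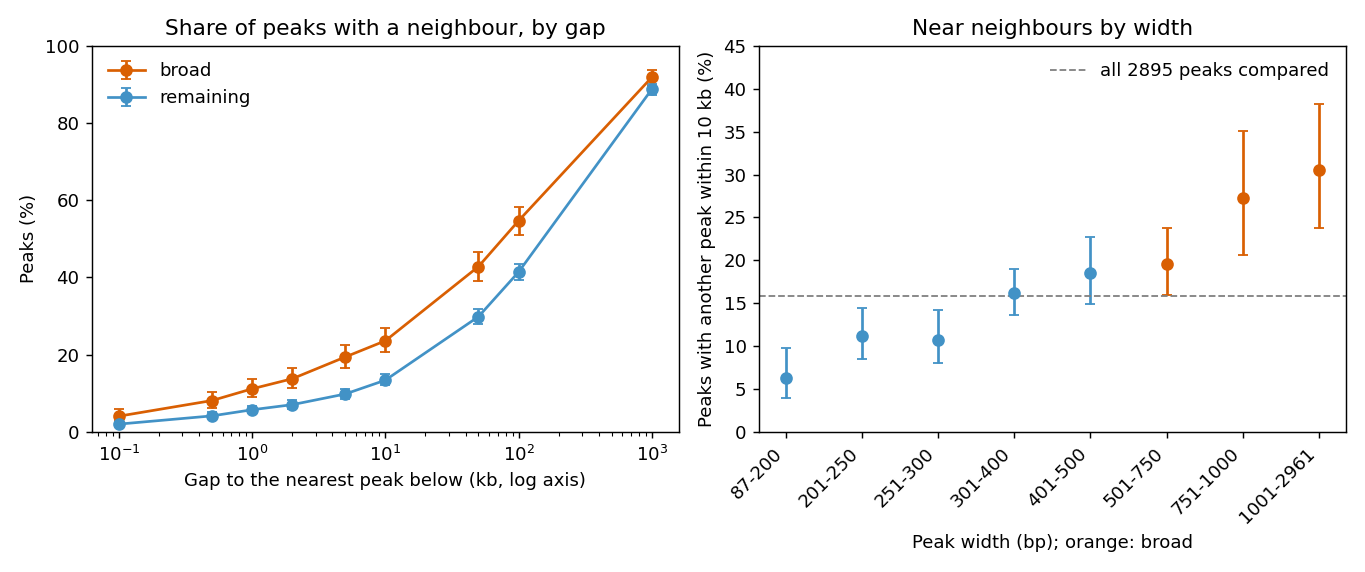
Left, share of broad and remaining peaks (vertical axis, percent) whose nearest peak lies closer than the gap on the horizontal axis (kb, log scale), with 95% Wilson intervals; the broad peaks are above the remaining ones at each gap, at 23.6% against 13.4% for 10 kb. Right, share of peaks with another peak within 10 kb by width class, broad classes in orange, with the 15.8% of all peaks compared as a dashed line; the share climbs from 6.25% to 30.5% with no step at 500 bp.

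Where a broad peak had a near neighbour, that neighbour was often broad too. The nearest peak was wider than 500 bp for 76 of the 163 broad peaks with a neighbour within 10 kb, or 46.6% (39.1 to 54.3%), and for 88 of the 295 remaining peaks, or 29.8% (24.9 to 35.3%). The difference was 16.8 points (7.53 to 25.9). Of all 2895 peaks compared, 23.9% were wider than 500 bp, so the share beside remaining peaks also lay above that of the list. Without the run of broad peaks on chromosome 4 described further on, the shares were 42.6% and 29.4%, a difference of 13.2 points (3.797 to 22.7). Among 265 pairs of adjacent peaks with a gap under 10 kb, 47 joined 2 broad peaks, 102 joined a broad and a remaining peak, and 116 joined 2 remaining peaks.

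Pairs of a broad and a remaining peak had the smallest median gap. It was 1045 bp, against 2707 bp for 2 broad peaks and 2325 bp for 2 remaining peaks, and in 51 of the 102 the gap was under 1 kb. The broad peak lay at the lower coordinate in 50 mixed pairs and at the higher one in 52, so it lay on either side about equally often. In 81 of the 102 pairs the broad peak had the higher score of the pair. Broad peaks also scored higher among all peaks compared, with a median of 370.7 against 165.8, and peaks farther apart were not paired for comparison. The smallest gap between 2 broad peaks was 2 bp, on chromosome 11 between bases 67231849 and 67231852, where peaks of 550 bp (score 392.8) and 743 bp (score 308.4) nearly touched.

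At a larger scale, more of the broad than of the remaining peaks had many other peaks around them. Counting other peaks with a centre within 500 kb of the member's own, 204 broad peaks, or 29.5%, had 5 or more, against 18.3% of the remaining peaks (difference 11.2 points, 7.51 to 15.0). None at all were found around 110 broad peaks, or 15.9%, and around 24.2% of the remaining peaks (difference −8.31 points, −11.4 to −4.91). The median was 2 others in both groups. Peaks of a cluster count one another, so the units are not independent and these intervals are too narrow. The 204 include all 15 broad members of the run on chromosome 4 described further on, and values without that run were not computed.

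A smaller set of broad peaks stood alone. For 56 of them, or 8.10% (6.29 to 10.4%), the nearest peak was at least 1 Mb away, against 11.2% of the remaining peaks (9.96 to 12.6%; difference −3.10 points, −5.38 to −0.51). These lone members lay on 21 chromosomes, and 10 of them were on chromosome 4, which held 43 of the 691 broad peaks. Of the 56, 17 or 30.4% were at the ceiling, against 21.0% of all broad peaks, and no interval was computed for this contrast. The loneliest, on chromosome 4 (bases 118006341 to 118007003, 663 bp, score 2966), had no other peak within 8.23 Mb. On chromosome 3 a member of 1012 bp at the ceiling (bases 81810106 to 81811117) was 5.17 Mb from the next peak. Another at the ceiling, of 1361 bp on chromosome 10 (bases 7859985 to 7861345), was 4.31 Mb from it. A strong, broad call thus occurred far from any other peak of the list.

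Broad peaks joined into 38 runs, in which successive members were less than 10 kb apart. These held 93 members, or 13.5% of all broad peaks. Of the runs 33 were pairs, 4 held 3 members, and 1 held 15. Each of the 4 runs of 3 contained 1 member at the ceiling, and 15 of the 33 pairs contained at least 1. The runs of 3 lay on chromosome 1 (bases 156710537 to 156722293, scores from 923.8 to 3100), chromosome 10 (bases 104179224 to 104192597, which includes the widest member), chromosome 11 (bases 67231300 to 67237212, scores from 308.4 to 3100) and chromosome 12 (bases 118809125 to 118814672, scores from 137.5 to 3100).

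The run of 15 differed from those in its scores. It lay on chromosome 4 from base 49281734 to base 49332660, a part of hg19 next to the centromere, the chromosome's repeat-rich attachment point in cell division. In 50.9 kb it held 17 peaks, 15 of them broad, with gaps of 25 to 5207 bp that left 30.9% of the stretch covered. The 15 broad members were 503 to 1845 bp wide with a median of 883 bp, above the 700 bp of all broad peaks. Their scores ran from 103.7 to 498.7 with a median of 153.6, below the 370.7 of all broad peaks, and 9 of the 15 were weak. None of them reached the ceiling. That also held for some of the pairs, such as one on chromosome 12 (bases 123429074 to 123431867) with scores of 102.5 and 127.1. How reads that match several places in the genome were handled is stated in no source used here, and the part this plays in the run was not tested.

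**Figure D4:**
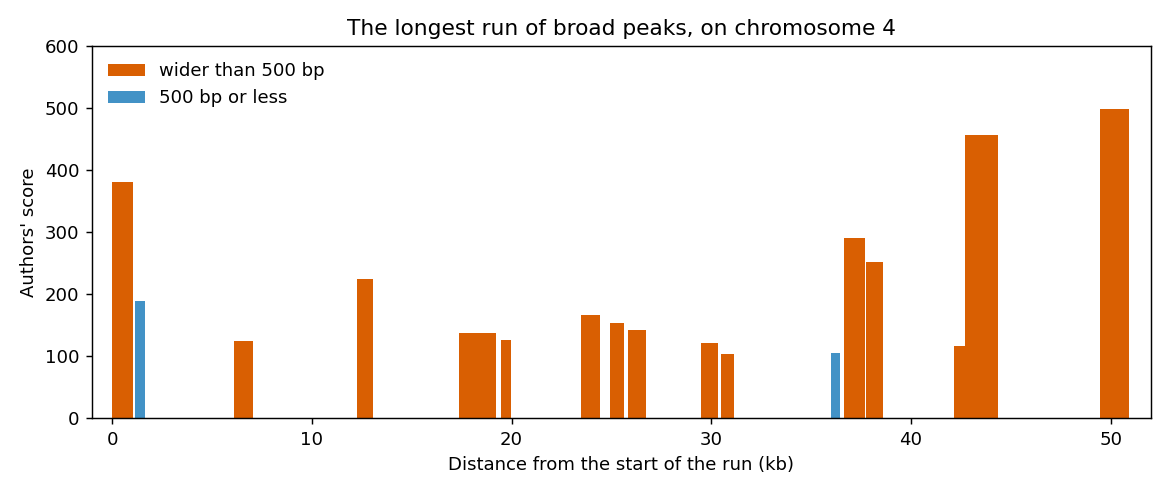
The 17 peaks of the run on chromosome 4, drawn to scale by their distance from its start (horizontal axis, kb) with the authors' score as height (vertical axis). The 15 broad peaks (orange) score between 103.7 and 498.7, and the 2 peaks of 500 bp or less (blue) score 189 and 105.6.

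Chromosomes differed in the share of their peaks that was broad. With chromosome Y set aside, the share was highest on chromosome 4, where 43 of 110 peaks were broad, or 39.1% (30.5 to 48.4%), against 23.9% in all peaks compared. It was lowest on chromosome 5, with 18 of 154, or 11.7% (7.52 to 17.7%). Intervals also lay above the share of the list on chromosome 19, with 55 of 173 or 31.8% (25.3 to 39.1%), and on chromosome 17, with 61 of 203 or 30.05% (24.2 to 36.7%). The intervals of the other 20 chromosomes held 23.9%. These 24 intervals were read without adjustment for their number, and the 2 peaks on chromosome Y are too few to read.

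Chromosome 4 owed much of its share to the single run. Without its 17 peaks, 28 of 93 were broad, or 30.1% (21.7 to 40.1%), an interval that holds the 23.5% of the list without the run. At a width threshold of 400 bp the excess on chromosome 4 was 8.53 points and its interval held 0 (−0.47 to 17.8), and so did that of chromosome 5 (−7.06 points, −13.7 to 0.59). At that threshold the intervals of chromosomes 11, 17 and 19 lay above the share of the list and those of chromosomes 3 and 15 below it. At 750 bp chromosomes 17 and 19 no longer lay above, and chromosomes 4 and 12 did, with chromosome 5 below. Among peaks scoring below the median of the list chromosome 17 was not above either, and among those at or above it neither 17 nor 19 was. On chromosome 5 the 18 members scored 277.7 at the median, and 2 stood at the ceiling, against 21.0% of all broad peaks. On chromosome 4 it was 4 of 43 and on chromosome 19 it was 6 of 55. The largest shares at the ceiling were on chromosomes 7 (12 of 27) and 16 (10 of 27), and the largest count was on chromosome 1 (17 of 76).

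The 2 chromosomes with the densest peaks were among those with large shares of broad ones. Chromosome 19, with 2.95 peaks per Mb of the stretch its peaks span, and chromosome 17, with 2.51, had the most peaks per Mb, and chromosome 13, at 0.37 per Mb, had 5 broad peaks among 33, or 15.2% (6.65 to 30.9%). Across 23 chromosomes Spearman's rho between density and the share of broad peaks was 0.56 and Pearson's r was 0.46. Without chromosomes 17 and 19 rho was 0.47 and r was 0.25, and without chromosome 4 alone rho was 0.72. This is a description: both measures count the same peaks. On chromosome 19, 28 of the 55 broad peaks were weak, or 50.9%, and on chromosome 20 it was 17 of 33, or 51.5%. The share was as high on chromosome 8, with 14 of 26 or 53.8%, where peaks were sparser (0.89 per Mb) and 20.3% of them broad. On chromosome 7 it was 5 of 27.

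**Figure D5:**
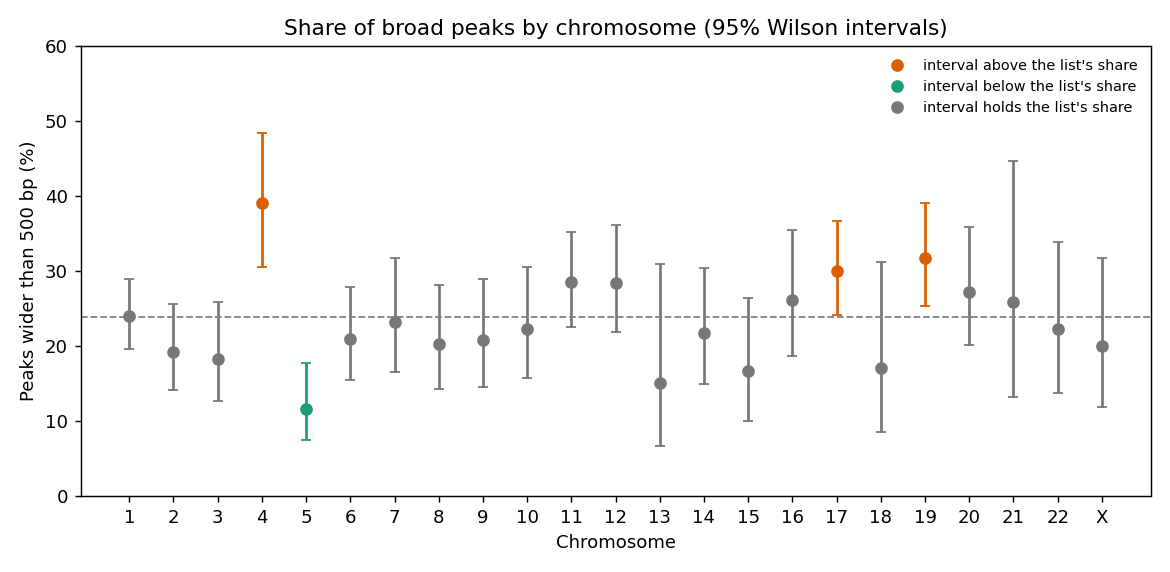
Share of peaks wider than 500 bp (vertical axis, percent) on each chromosome from 1 to X, with 95% Wilson intervals and the 23.9% of all peaks compared as a dashed line. Chromosome 4 is highest at 39.1% and chromosome 5 lowest at 11.7%; the intervals of chromosomes 4, 17 and 19 lie above the line.

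At the scale of 1 Mb, 462 of the 1331 windows with a peak held a broad one. In 324 of these it was the only broad peak, 42 windows had 3 or more, and 10 had 5 or more. Those 10 were picked for their number of broad peaks, a choice that favours shares above the 23.9% of the list, so their shares are a description only. After the window of the run on chromosome 4 (49 to 50 Mb, 16 of 18 peaks broad), the most were on chromosome 11 between 67 and 68 Mb, where 9 of 10 peaks were broad. Those 9 ranged from 545 to 1248 bp, and their scores ran from 188.9 to 3100. The single one at the ceiling (bases 67235965 to 67237212) lay 3.37 kb from the nearly touching pair described above. A further member 22.5 kb from its nearest peak (bases 67273319 to 67273863, 545 bp) scored 1624.

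Chromosome 11 held 2 more such windows. Between 65 and 66 Mb 7 of 9 peaks were broad, with a median score of 134.2, and only the 2661 bp peak was at the ceiling. Between 118 and 119 Mb 6 of 13 were broad, 1 of them at the ceiling (bases 118401100 to 118402658, 1559 bp). On chromosome 19, 7 of 9 peaks between 13 and 14 Mb were broad. They included a pair 460 bp apart, of 975 bp (bases 13226855 to 13227829, score 1715) and 1802 bp (bases 13228290 to 13230091, at the ceiling). On chromosome 17 the window from 80 to 81 Mb had 6 broad peaks of 8, with 2 at the ceiling, while the window from 73 to 74 Mb had 5 of 8, with widths of only 587 to 632 bp and none above a score of 556.6. On chromosome 6, between 32 and 33 Mb, 6 of 10 were broad. Between 161 and 162 Mb of chromosome 1, 5 of 6 were broad, with a highest score of 686.4. Of the 10 windows, 7 thus held at least 1 member at the ceiling beside weak ones, and the 3 on chromosomes 4 (49 to 50 Mb), 17 (73 to 74 Mb) and 1 held none.

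For other features of position the interval of the difference held 0, or that of the share held the share of the list. Within the first 2 Mb of a chromosome lay 19 broad peaks, or 2.75% (1.77 to 4.25%), and 36 remaining peaks, or 1.63% (1.18 to 2.25%), a difference of 1.12 points (−0.045 to 2.69). Within the first 5 Mb of a chromosome lay 35 broad peaks, or 5.07% (3.66 to 6.96%), and 98 remaining peaks, or 4.45% (3.66 to 5.39%), a difference of 0.62 points (−1.07 to 2.67). Of the 46 peaks that border the longest peak-free stretch of each of 23 chromosomes, 8 were broad, or 17.4% (9.09 to 30.7%), an interval that holds the 23.9% of the list.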

How the data were processed

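Peaks of 1 Miz1 ChIP-seq library of the line labelled MDA-MD-231 were taken from the list the authors deposited: chromosome, start, end, name and score per peak. CASAVA, FastQC, Bowtie 0.12.7 and MACS 1.4.2 and the builds hg19 and GRCh37 are named in the submitters' processing notes; settings, use of the input and read depth are stated in no source used here. The deposited score is a value of the authors and was used only to describe or group peaks within the list. Widths, gaps to the nearest peak, runs, 1 Mb windows and chromosome shares were computed in Python 3.11.15 with pandas 2.3.3. Shares were given Wilson intervals (scipy 1.17.1) and differences Newcombe intervals (statsmodels 0.14.6). Gaps, merging, chromosome shares and Newcombe intervals were checked on simulated data. The Newcombe intervals were checked with independent peaks only, which does not cover the dependence of close pairs.

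The members, gene lists and measures were chosen with earlier results of these data known. Named were the 10 widest members, those nearest the threshold, the chromosomes with the highest and lowest share of broad peaks and the longest run; other members named were chosen after their values were seen. No hg19 annotation or genome was used, so the comparisons planned for gene starts, CpG content, the Miz1 motif and the gene lists were not run. Alternatives were other widths, distances, peaks below or above the median score, merged peaks, and, added after seeing the data, leaving out the longest run or the peaks at the ceiling.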

Additional observations from a re-analysis of the deposited data

How the results depend on the processing

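Alternatives numbered 39 for 5 results; in 35 of them the difference stayed on the same side of 0 with an interval that leaves 0 out, or the count of chromosomes stayed within 1.5 times. The excess of near neighbours among broad peaks stayed above 0 in its 10 alternatives (6.72 to 14.6 percentage points), and so did the excess of broad neighbours in its 8 (12.4 to 31.7 points). The value of 31.7 came from merging peaks less than 1 kb apart, which also changed which peaks counted as broad. Chromosomes with an interval off the share of the list numbered 4. They numbered 2 when only the peaks scoring at least the list's median were kept, where only chromosomes 4 and 5 were left of the 4. The count was 6 in the lower-scoring peaks, and the cause was not tested. Those 6 include chromosome Y, whose 2 peaks in the list are too few to read. The count does not say which chromosomes stood apart. At 400 bp chromosomes 4 and 5 gave way to 3, 11 and 15, and at 750 bp chromosomes 17 and 19 gave way to 12. The share of chromosome 4 ceased to stand apart without its run and at a threshold of 400 bp, and that of chromosome 5 at 400 bp. No paired analysis was possible because there is 1 Miz1 library. Read depth, which limits which peaks could be called and how wide, is not known. Alternatives on gene starts, CpG content and the Miz1 motif were not run.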
